A study of Mus musculus with 6 samples.

Results

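The 10 genes described here are the NF-kappa-B factor genes Rela, Nfkb1, Nfkb2 and Relb and 6 genes that these factors are known to switch on, Nfkbia, Nfkbiz, Bcl3, Tnfaip3, Birc3 and Icam1. They were picked by symbol from the 51804 gene symbols of a mouse kidney RNA-seq table, and all 10 passed the expression filter that left 15017 genes for testing. The libraries comprise 3 labelled knockout (genotype Ccnb1f/f;Cdh16-Cre) and 3 controls (Ccnb1f/f), so both groups carry floxed alleles of Ccnb1, the gene of the mitotic cyclin B1. The question behind the comparison is how cyclin B1 deletion in the tubule bears on kidney fibrosis. The Cdh16 promoter drives Cre in tubular epithelium, whereas the tissue is whole kidney, which also holds vessels, stroma and immune cells. The sources used here give neither the age and strain of the mice nor whether each library is 1 animal.

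NF-kappa-B factors act as pairs of related proteins. Inhibitors of the I-kappa-B family hold them in the cytoplasm until a signal, such as tumour necrosis factor, has the inhibitor destroyed, and the freed factors then enter the nucleus. There they switch on inflammatory genes and also their own inhibitors, which end the response. In kidney the pathway is known from injured tubule, endothelium and infiltrating leukocytes.

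Each library held 16061435 to 21261226 estimated counts. Ccnb1 had 18, 15 and 11 counts in the libraries labelled knockout, against 11, 17 and 7 counts in the controls, so at this depth the targeted gene does not check the labels. Proximal tubule markers (Lrp2, Slc34a1, Slc5a2, Cubn, Slc22a6 and Aqp1) summed to 11031 to 12783 CPM in the libraries labelled knockout, against 10817 to 14265 CPM in the controls. CPM are counts scaled to a common library total by TMM, a method that evens out differences in composition. One control stood apart in genes of acute stress. Control 3 had 439 CPM of the early response factor Egr1, against 22.2 to 50.7 CPM in the other 5 libraries, and 792 CPM of the heat shock gene Hspa1a, against 13.9 to 99.4 CPM.

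The kappa-B consensus, the decameric motif bound by these factors, lies close to the start of 4 of the genes. RefSeq promoter windows (GRCm38.p6, 250 bases before to 50 after a start) were at hand for 7 of the 10 genes and were searched on both strands. The pattern searched was GGGRNNYYCC (R is A or G, Y is C or T, N is any base), and sites that depart from it were not counted. In this form the motif was found for Nfkbia, Nfkb2, Tnfaip3 and Bcl3 and not for Rela, Icam1 or Birc3. Some genes have several windows, and 6 of the 10 windows of these genes hold it, beside 2779 of 32851 windows of all genes (8.46%). Every window of Nfkb2 holds it, and 2 of these overlap and share a motif, so windows are not separate observations. Nfkb1, Relb and Nfkbiz were not searched. The stretches below show how near the start the motifs of the inhibitor and feedback genes lie; they run 5′ to 3′ on the gene's strand, with the motif in capitals and positions counted from the start base as 1.
Nfkbia, the 150 bases before the start, chr12:55492648-55492797, minus strand: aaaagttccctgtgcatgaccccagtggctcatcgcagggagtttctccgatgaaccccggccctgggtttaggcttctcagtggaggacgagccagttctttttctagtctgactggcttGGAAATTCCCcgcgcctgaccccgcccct
Tnfaip3, motif at -12 to -3: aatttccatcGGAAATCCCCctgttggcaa
Tnfaip3, motif at -125 to -116: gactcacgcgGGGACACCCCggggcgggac
Nfkb2, 2 overlapping motifs at -39 to -29: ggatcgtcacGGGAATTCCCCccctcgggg
Nfkb2, motif at -11 to -2: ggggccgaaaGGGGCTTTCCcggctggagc
Bcl3, motif at 3 to 12: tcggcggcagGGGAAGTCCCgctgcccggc

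The Nfkbia motif (chromosome 12, 55492667 to 55492676) lies upstream of the gene in GENCODE M21. The Tnfaip3 motifs (chromosome 10, 19015413 to 19015422 and 19015526 to 19015535) lie in an intron there, because a GENCODE transcript starts farther upstream. Those of Nfkb2 (chromosome 19, 46304698 to 46304708 and 46304726 to 46304735) and of Bcl3 (chromosome 7, 19822744 to 19822753) lie in untranslated exon sequence of GENCODE M21. The deposited coordinates start Nfkb2 at 46304737, and by them these Nfkb2 motifs lie upstream of the gene. Nfkb2 has 3 windows for its different starts, and the other two add a motif in an intron (46305459 to 46305468) and one in untranslated exon sequence (46305705 to 46305714), which are not printed above. A match of letters is not a measured binding site.

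Neither direction held a call among the 10 genes. By edgeR's quasi-likelihood test, 0 of 10 passed an adjusted p of 0.05, beside 2 of all 15017 genes tested (0.0133%). At an unadjusted p under 0.05 there were 0 of the 10, beside 3.23% of all genes, and DESeq2 also called 0. The fold change was below 0 for 8 genes and above 0 for 2, with a median log2 fold change of -0.20 (labelled knockout over control), where 51.0% of all genes lay below 0 and their median was -0.01. Without control 3, 5 of the 10 lay below 0 and the median was -0.02, and without the library labelled knockout 2 the median was -0.09. All 10 had an adjusted p of 0.9995. In whole kidney RNA, fewer cells of a type and less RNA per cell cannot be told apart.

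**Figure D1:**
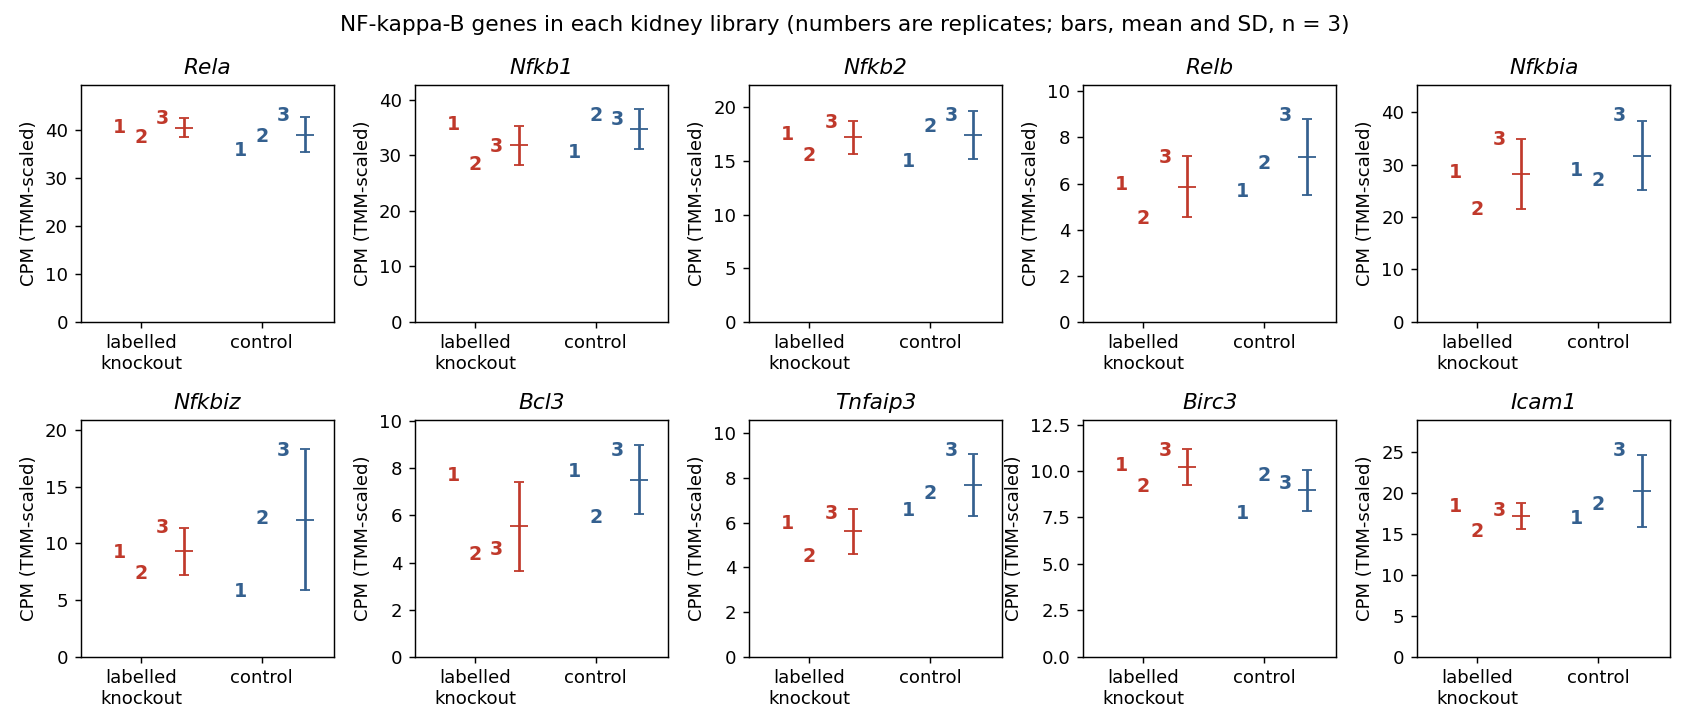
Level of each of the 10 genes in CPM (vertical axes from 0) in the libraries labelled knockout (red, left) and the controls (blue, right); digits are replicate numbers, and the dash with its bar is the mean and SD of 3 libraries. On this scale the groups overlap for every gene except Tnfaip3, and control 3 is the highest library for 8 of the 10 genes.

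On the scale that corrects for transcript length (FPKM, counts scaled by library total and transcript length, summed over a gene's transcripts), Nfkbia was the highest of the 10 at 21.1 ± 3.86 FPKM (SD over 6 libraries). Rela followed at 14.7 ± 1.16 FPKM, Nfkb1 at 11.8 ± 1.75 FPKM, Icam1 at 7.40 ± 1.29 FPKM and Nfkb2 at 5.59 ± 0.652 FPKM. Down to Nfkb2, each gene stood above the next in all 6 libraries, and Nfkb2 stood above Birc3 in all 6. Next came Birc3 (4.15 ± 0.42 FPKM), Bcl3 (3.69 ± 0.99 FPKM), Relb (3.07 ± 0.706 FPKM) and Nfkbiz (2.96 ± 1.23 FPKM). Neighbours in this order were separated by less than the larger of their SDs. Tnfaip3 was the lowest at 1.51 ± 0.302 FPKM and stood below Nfkbiz in all 6 libraries. The summed FPKM of the inhibitor gene Nfkbia exceeded that of Rela in every library. The ratio was 1.41, 1.11 and 1.55 in the libraries labelled knockout, against 1.49, 1.36 and 1.70 in the controls. The 2 ranges overlap. The Nfkbia sum includes Nfkbia-202, a retained-intron transcript of 701 bases, where the coding Nfkbia-201 has 1578 bases. Nfkbia-202 averaged 11.4% of the gene's counts in the libraries labelled knockout, against 7.6% in the controls. The FPKM of Nfkbia-201 alone was not compared with Rela, so the order and the ratio hold for the summed FPKM only.

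Rela (ENSMUSG00000024927, chromosome 19, 5637483 to 5648130) codes for the subunit that activates transcription in the classical pathway and was the steadiest of the 10. It had 40.5, 38.5 and 42.5 CPM in the libraries labelled knockout, against 35.8, 38.6 and 43.0 CPM in the controls. The highest library held 1.20 times the lowest. Its log2 fold change was 0.05 (SE 0.11, 95% interval -0.20 to 0.30, adjusted p = 0.9995 by edgeR), and -0.01 without control 1. The interval covers folds of 0.87 to 1.23.

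Coordinates are those of the deposited table on GRCm38. Nfkb1 (ENSMUSG00000028163, chromosome 3, 135584655 to 135691547) codes for a precursor that is trimmed to the DNA-binding partner of the Rela protein. It had 35.5, 28.4 and 31.5 CPM in the libraries labelled knockout, against 30.5, 37.1 and 36.5 CPM in the controls. The groups overlapped, with a log2 fold change of -0.13 (SE 0.13, 95% interval -0.43 to 0.17), and -0.21 to -0.06 with 1 library left out. Nfkb2 (ENSMUSG00000025225, chromosome 19, 46304737 to 46312090), the precursor of the alternative pathway, had 17.5, 15.5 and 18.6 CPM in the libraries labelled knockout, against 14.9, 18.2 and 19.2 CPM in the controls. Means of 17.2 ± 1.56 CPM in the libraries labelled knockout, against 17.4 ± 2.26 CPM in the controls (SD, n = 3 each), gave a log2 fold change of -0.02 (SE 0.15). That value turned to 0.02 without control 2, 0.06 without control 3 and 0.04 without the library labelled knockout 2.

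Relb (ENSMUSG00000002983, chromosome 7, 19606217 to 19629438), whose protein pairs with the processed Nfkb2 product, was the least abundant factor gene. It had 103, 71 and 155 counts in the libraries labelled knockout, against 93, 136 and 153 counts in the controls. This is 5.97, 4.48 and 7.15 CPM in the libraries labelled knockout, against 5.64, 6.89 and 8.94 CPM in the controls. The libraries of the 2 groups interleaved, and the log2 fold change was -0.28 (SE 0.25, 95% interval -0.86 to 0.29). The range in folds is 0.553 to 1.22. The log2 value was -0.09 without control 3, -0.13 without the library labelled knockout 2, -0.43 without control 1 and -0.45 without the library labelled knockout 3.

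**Figure D2:**
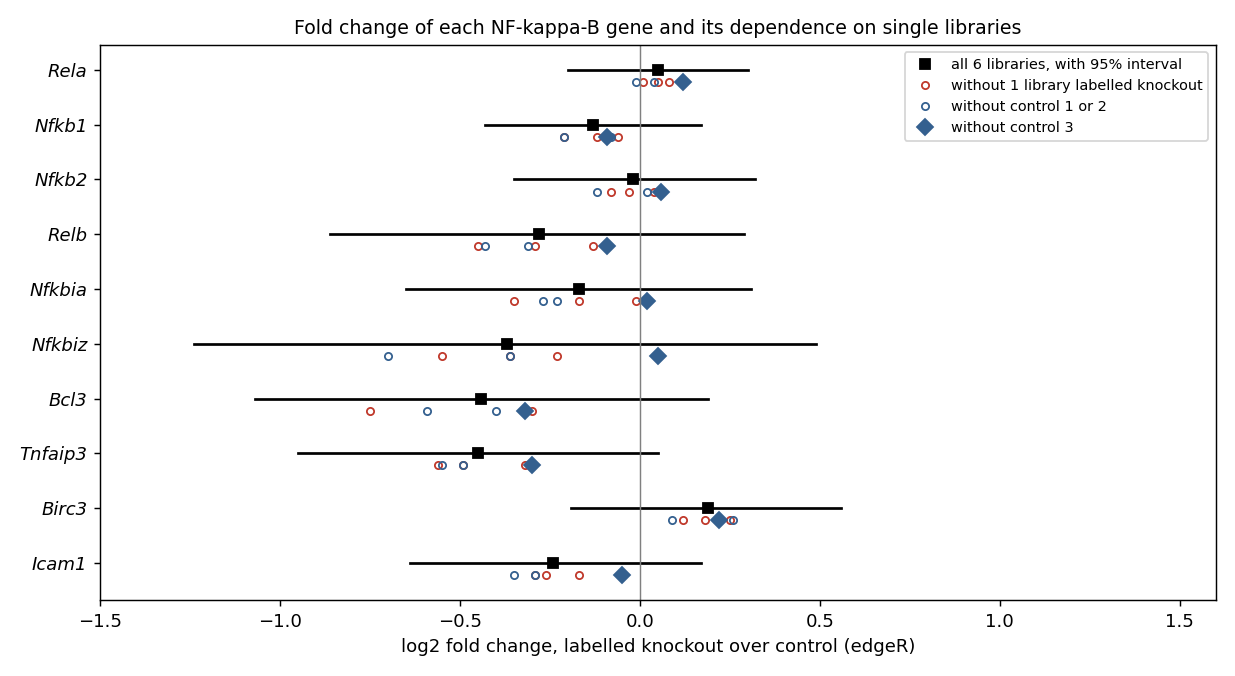
Log2 fold change (horizontal axis, labelled knockout over control, edgeR) of each gene with its 95% interval from all 6 libraries (black), and the value after leaving out 1 library labelled knockout (red circles), control 1 or 2 (blue circles) or control 3 (blue diamonds). Every interval includes 0, and without control 3 the values of Nfkbia and Nfkbiz move to 0.02 and 0.05.

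Among the inhibitors, Nfkbia (ENSMUSG00000021025, chromosome 12, 55489410 to 55492647) codes for I-kappa-B alpha, the protein that returns the factors to the cytoplasm and whose new synthesis ends a response. It had 490, 339 and 753 counts in the libraries labelled knockout, against 475, 533 and 673 counts in the controls. In CPM these were 28.4, 21.4 and 34.7 in the libraries labelled knockout, against 28.8, 27.0 and 39.3 in the controls. The lowest library was labelled knockout 2 and the highest was control 3, and the other 4 lay between with the groups mixed. The log2 fold change was -0.17 (SE 0.21, 95% interval -0.65 to 0.31), and 0.02 without control 3.

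Nfkbiz (ENSMUSG00000035356, chromosome 16, 55811375 to 55838899) and Bcl3 (ENSMUSG00000053175, chromosome 7, 19808462 to 19822770) code for nuclear members of the I-kappa-B family that bind DNA-bound factors and alter which targets respond. Nfkbiz varied most of the 10, with 9.16, 7.32 and 11.4 CPM in the libraries labelled knockout, against 5.77, 12.2 and 18.2 CPM in the controls. Control 3 held 3.16 times the level of control 1, and all 3 libraries labelled knockout lay between those controls. Its log2 fold change of -0.37 (SE 0.38) turned to 0.05 without control 3.

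Bcl3 had 7.71, 4.35 and 4.57 CPM in the libraries labelled knockout, against 7.89, 5.93 and 8.76 CPM in the controls. The library labelled knockout 1 lay among the controls, and the other two lay below all of them. The log2 fold change was -0.44 (SE 0.27, 95% interval -1.07 to 0.19, adjusted p = 0.9995 by edgeR), and -0.75 without the library labelled knockout 1. Bcl3 and Nfkbiz are the genes whose intervals reach a fold change of 2 (a log2 value of 1), so such a decrease was not excluded at this depth for them.

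Tnfaip3 (ENSMUSG00000019850, chromosome 10, 19000910 to 19015657) codes for a ubiquitin-editing enzyme that shuts off the signal upstream of the factors. It was the gene with the lowest unadjusted p of the 10 (0.072). It had 103, 71 and 139 counts in the libraries labelled knockout, against 108, 144 and 158 counts in the controls. As CPM these were 5.97, 4.48 and 6.41 in the libraries labelled knockout, against 6.56, 7.30 and 9.23 in the controls. All 3 libraries labelled knockout lay below all 3 controls, the nearest pair being 6.41 and 6.56 CPM. The log2 fold change was -0.45 (SE 0.22, 95% interval -0.95 to 0.05, adjusted p = 0.9995 by edgeR), -0.30 without control 3. By exact permutation of the group labels, two-sided, p was 0.1, which is the lowest value that 3 against 3 libraries can give.

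Groups without overlap in CPM were seen for 1 of the 10 genes, beside 8.18% of all genes tested in either direction and 4.08% with the libraries labelled knockout lower. The separation of Tnfaip3 depended on the scaling. Without TMM it had 5.95, 4.42 and 6.54 CPM in the libraries labelled knockout, against 6.31, 7.74 and 8.94 in the controls. The groups then overlapped. In FPKM it had 1.35, 1.13 and 1.46 in the libraries labelled knockout, against 1.41, 1.72 and 1.99 in the controls, and the groups overlapped. In FPKM it was instead Birc3 that did not overlap, beside 7.93% of all genes in either direction and 4.39% with the libraries labelled knockout higher. Short transcripts add more FPKM per count. In the library labelled knockout 2, Birc3-203 (795 bases) was assigned 11.9 counts and Birc3-204 (732 bases) 7.4, where Birc3-201 has 2667 bases. Control 1 had 9.6 counts of Birc3-203 and control 3 had 8.8 of Birc3-204. The FPKM of Birc3-201 alone was not compared between the groups.

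Birc3 (ENSMUSG00000032000, chromosome 9, 7848699 to 7873186) codes for a ubiquitin ligase that relays signals from tumour necrosis factor receptors and restrains cell death. It had 10.3, 9.15 and 11.1 CPM in the libraries labelled knockout, against 7.71, 9.78 and 9.35 CPM in the controls. In FPKM the ranges were 4.30 to 4.64 in the libraries labelled knockout, against 3.42 to 4.15 in the controls. With Rela, Birc3 was one of the pair with a fold change above 0, at a log2 value of 0.19 (SE 0.16, 95% interval -0.19 to 0.56). Without control 1 it was 0.09, and without the library labelled knockout 3 it was 0.12.

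Icam1 (ENSMUSG00000037405, chromosome 9, 21015985 to 21028817), the adhesion molecule that endothelium and injured epithelium present to leukocyte integrins, stands for the downstream targets. It had 18.4, 15.3 and 17.9 CPM in the libraries labelled knockout, against 16.9, 18.6 and 25.2 CPM in the controls. The first 2 controls lay within or next to the range of the libraries labelled knockout, and control 3 lay above all others. The log2 fold change was -0.24 (SE 0.18, 95% interval -0.64 to 0.17), and -0.05 without control 3. The 6 endothelial markers Pecam1, Cdh5, Kdr, Tek, Emcn and Flt1 summed to 377, 304 and 292 CPM in the libraries labelled knockout, against 343, 386 and 313 CPM in the controls. The part of endothelial RNA in the level of Icam1 was not tested.

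**Figure D3:**
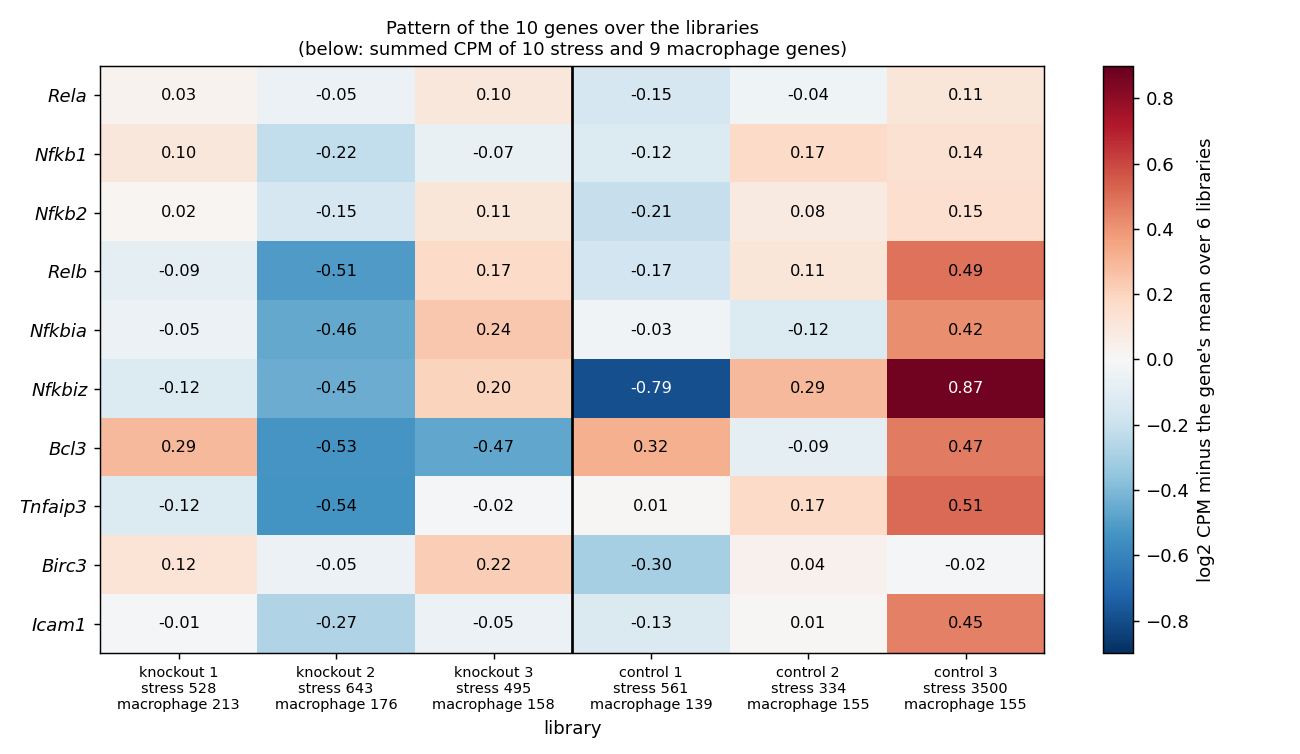
Log2 CPM of each gene (rows) minus its own mean over the 6 libraries (columns; knockout 1 to 3 are the libraries labelled knockout), with the summed CPM of 10 stress genes and 9 macrophage genes under each library. Control 3 is above the mean for 9 of the 10 genes, with a stress sum of 3500 CPM, and the library labelled knockout 2 is below it for all 10.

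Single libraries set the range of most of the 10 genes. The median of their log2 CPM, each centred on its own mean, was 0.01, -0.36 and 0.10 in the libraries labelled knockout, against -0.14, 0.06 and 0.43 in the controls. Control 3 was the highest library for 8 of the 10, where 15.1% of all tested genes were highest in it. The library labelled knockout 2 was the lowest for 6 and control 1 for the other 4, where 14.6% and 18.7% of all tested genes were lowest in them.

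The 10 immediate early and stress genes (Fos, Fosb, Jun, Egr1, Ier2, Atf3, Dusp1, Hspa1a, Hspa1b and Zfp36) were highest in control 3 for 9 of 10, the exception being Fosb, which was highest in the library labelled knockout 2. Their summed level was 528, 643 and 495 CPM in the libraries labelled knockout, against 561, 334 and 3500 CPM in the controls. None of the 10 passed the test between groups, 9 had a fold change below 0, and none was at 0 counts throughout. Without control 3 the fold change was above 0 for all 10. Their part in the levels of Nfkbia, Nfkbiz, Tnfaip3, Relb and Icam1 was not tested.

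The marker lists of leukocytes differed in which library was highest. The 9 macrophage and monocyte markers summed to 213, 176 and 158 CPM in the libraries labelled knockout, against 139, 155 and 155 CPM in the controls, and 9 of 9 had a fold change above 0 with none past the test. Neutrophil markers were near 0, with 0.82 to 2.99 CPM for the sum of 5 genes over the 6 libraries. The 6 T cell markers summed to 5.21 to 8.75 CPM in the libraries labelled knockout, against 5.46 to 7.91 CPM in the controls. The 4 B cell markers summed to 2.78, 3.41 and 2.68 CPM in the libraries labelled knockout, against 3.40, 1.62 and 4.79 CPM in the controls, so control 3 was the highest there. The share of leukocyte RNA in the levels of the 10 genes was not tested.

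The 4 fibroblast and pericyte markers had fold changes below 0, as did 8 of the 10 genes. Without control 3 the markers were at -0.58 (Pdgfra), -0.51 (Pdgfrb), -0.56 (Dcn) and -0.42 (Col1a1) on the log2 scale. In that setting 5 of the 10 genes lay below 0. Pdgfra, Pdgfrb, Dcn and Col1a1 summed to 94.3, 62.3 and 66.4 CPM in the libraries labelled knockout, against 106, 109 and 85.0 CPM in the controls, and the sums overlapped. Their median log2 fold change was -0.41, and 3 of 4 had an unadjusted p under 0.05, beside 3.23% of all genes, with none past the adjusted threshold by edgeR. Col1a1, a collagen gene, was at -0.45 (SE 0.17), and -0.42 without control 3. Dcn, the gene of the matrix proteoglycan decorin, was at -0.58 (SE 0.24), and -0.93 and -0.38 without the libraries labelled knockout 1 and 2. The part of these cells in the levels of the 10 genes was not tested.

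The genes whose levels ran most like that of Nfkbia over the 6 libraries were Arhgap22, Ppp1r10 and Fam102b. Likeness was the root mean square difference of centred log2 CPM among 11047 other genes with a mean of at least 5 CPM, and it was 0.057, 0.067 and 0.076 for these 3. Of the other 9 genes, Relb ranked 18 in that order (0.124), Icam1 53, Tnfaip3 69, Nfkb2 289, Rela 544, Nfkb1 770, Birc3 2952, Bcl3 7445 and Nfkbiz 9051. The measure also grows where genes differ in how widely they vary, so a low rank does not show an opposite course. Nfkbiz, which varied most, was highest in control 3, as was Nfkbia. Nfkbiz was lowest in control 1, and Nfkbia in the library labelled knockout 2. For Icam1 the nearest genes were Kctd11 (0.04), Gpt2 (0.046) and Cdkn2aip (0.062). In the order for Icam1, Relb ranked 157, Nfkb1 177, Tnfaip3 180, Nfkb2 211, Nfkbia 260, Rela 489, Birc3 4228, Bcl3 7262 and Nfkbiz 9237.

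The wider pathway showed as few differences. Of 108 further genes listed by role, 90 were tested, 0 passed the adjusted threshold by edgeR and 0 by DESeq2. There were 3 of 90 with an unadjusted p under 0.05, beside 3.23% of all genes tested, all lower in the libraries labelled knockout. In the list 52 lay below 0 and 38 above, where 51.0% of all genes lay below, and the median was -0.04 on the log2 scale. The CPM of the groups did not overlap for 8.89% of them, beside 8.18% of all genes. The 3 genes of low p, which were picked out after their values were seen, were the chemokine gene Cx3cl1 (-0.30, SE 0.11), the kinase gene Map3k14 (-0.85, SE 0.32) and Tnfsf13b, the gene of a survival factor for B cells (-0.86, SE 0.34).

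Map3k14 codes for the kinase that starts processing of the Nfkb2 product. It had 13.6, 11.0 and 7.98 CPM in the libraries labelled knockout, against 16.8, 12.7 and 29.4 CPM in the controls. The library labelled knockout 1 lay above control 2, so the groups overlapped, and control 3 was again the highest. Without control 3 the log2 fold change was -0.44.

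The ligand genes differed widely in level. Of the 12 ligand genes 6 were tested, 5 above 0 and 1 below, and the median of their log2 fold changes was 0.24. The most abundant were Hmgb1, a nuclear protein that signals when released, and Tnfsf12. Hmgb1 averaged 59.6 ± 14.6 CPM in the libraries labelled knockout, against 56.7 ± 8.67 CPM in the controls (SD, n = 3 each). Tnfsf12 averaged 17.0 ± 3.28 CPM in the libraries labelled knockout, against 16.3 ± 1.08 CPM in the controls (SD, n = 3 each). Tnf, the classical inducer, had 6, 3 and 3 counts in the libraries labelled knockout, against 2, 5 and 1 counts in the controls, too few to test. Among the inflammatory targets too low to test, Il6 and Ccl20 had at most 2 counts in any library and Ccl2 at most 18. Of the 40 other targets listed, 31 were tested.

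Receptor genes had a median log2 fold change of -0.14 over 13 tested (5 above 0, 8 below, 0 called), with Ltbr at 0.03 (SE 0.14) and Tnfrsf1a, the main receptor of tumour necrosis factor, at 0.05 (SE 0.12). Kinases and adaptors had a median of 0.05 over 22 (14 above 0, 8 below, 0 called), with the I-kappa-B kinase subunit gene Chuk at 0.19 (SE 0.15) and Tab2 at 0.07 (SE 0.14). The other REL and inhibitor genes had a median of -0.07 over 4 (1 above 0, 3 below, 0 called), with Nfkbib at -0.01 (SE 0.15) and Nfkbie at -0.13 (SE 0.30).

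Other feedback regulators had a median of -0.02 over 14 (6 above 0, 8 below, 0 called), with Tax1bp1, a partner of the Tnfaip3 product, at 0.10 (SE 0.10) and the deubiquitinase gene Cyld at -0.01 (SE 0.10). Other targets had a median of -0.12 over 31 tested of 40 (7 above 0, 24 below, 0 called), where 51.0% of all genes lay below 0. The list was not examined without control 3. The 2 most abundant of them lay near 0, with the urokinase gene Plau at -0.09 (SE 0.16) and Sod2, mitochondrial superoxide dismutase, at 0.05 (SE 0.10).

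**Figure D4:**
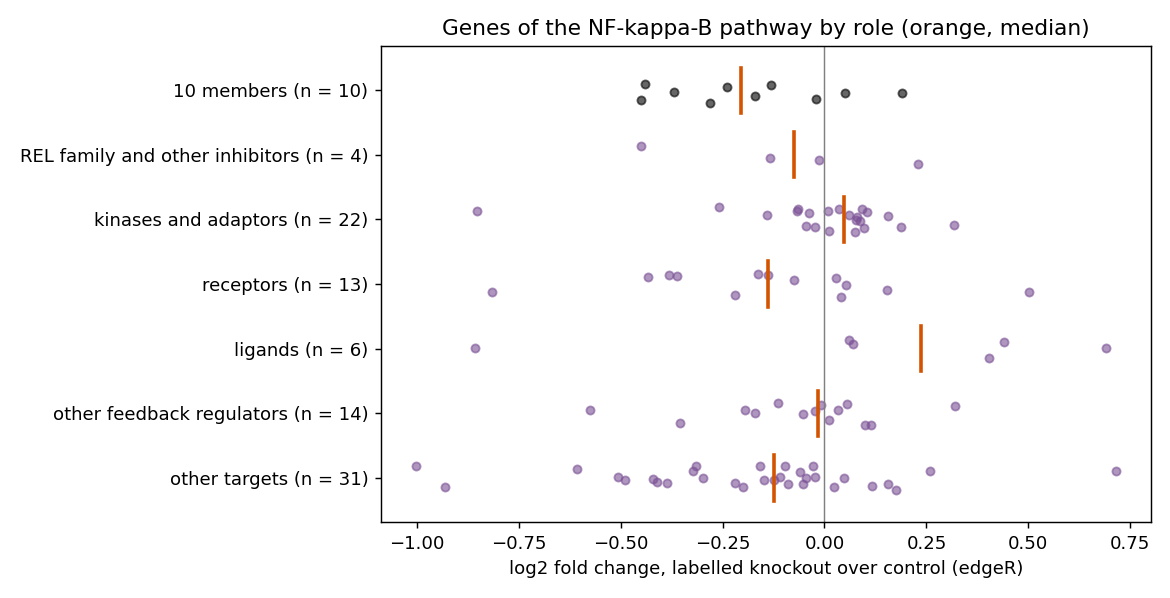
Log2 fold change (horizontal axis, labelled knockout over control, edgeR) of each of the 10 genes (black) and of the 90 further tested genes of the pathway by role (purple), with the median of each set in orange and vertical scatter for legibility only. Medians lie between -0.20 for the 10 genes and 0.24 for the ligands, and no gene passed the threshold.

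The deposited table divides each gene's estimated counts among its transcripts, 51 for the 10 genes in all, of which 27 are annotated as protein coding in GENCODE M21. Rela has a single listed transcript. In the libraries labelled knockout, Icam1-201 averaged 96.5%, Bcl3-201 97.6% and Birc3-201 91.9% of their gene's counts, against 97.3%, 95.9% and 91.1% in the controls. The other factor genes were more divided. Relb-202 averaged 83.7% in the libraries labelled knockout, against 81.3% in the controls, and Nfkb2-201 averaged 61.6% in the libraries labelled knockout, against 76.9% in the controls. Nfkb1 is spread over 10 listed transcripts. Its protein-coding transcripts held 65.6%, 72.9% and 58.4% of its counts in the libraries labelled knockout, against 61.9%, 70.7% and 61.0% in the controls, and transcripts with a retained intron held most of the rest. The groups overlapped.

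Transcript shares were compared for genes with at least 50 counts in every library. A transcript had to average at least 3% of its gene in either group and under 97% over the 6 libraries. Shares without overlap between groups were seen for 5 of 26 transcripts compared, in 3 of the 10 genes, beside 11.3% of transcripts of all tested genes. Shares within a gene sum to a whole, so the 2 transcripts of Nfkb2 count as 1 observation, and the 2 of Tnfaip3 nearly so. Tnfaip3-205 averaged 1.2% in the libraries labelled knockout, against 5.8% in the controls, so it entered through the controls alone. Nfkb2-202 held 43.7%, 32.0% and 39.5% of the gene in the libraries labelled knockout, against 11.1%, 27.2% and 31.0% in the controls. Nfkb1-204, with a retained intron, held 2.6%, 5.5% and 5.4% in the libraries labelled knockout, against 8.5%, 8.8% and 8.6% in the controls. Tnfaip3-201, the main coding transcript, held at least 96.3% in each library labelled knockout, against 95.6%, 93.1% and 93.8% in the controls. The retained-intron transcript Tnfaip3-205 held 0.0%, 0.0% and 3.7% in the libraries labelled knockout, against 4.4%, 6.9% and 6.2% in the controls. It had at most 9.9 counts in any library. These transcripts were picked out after their values were seen, and division of reads among overlapping transcripts is an estimate whose error is not known here.

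**Figure D5:**
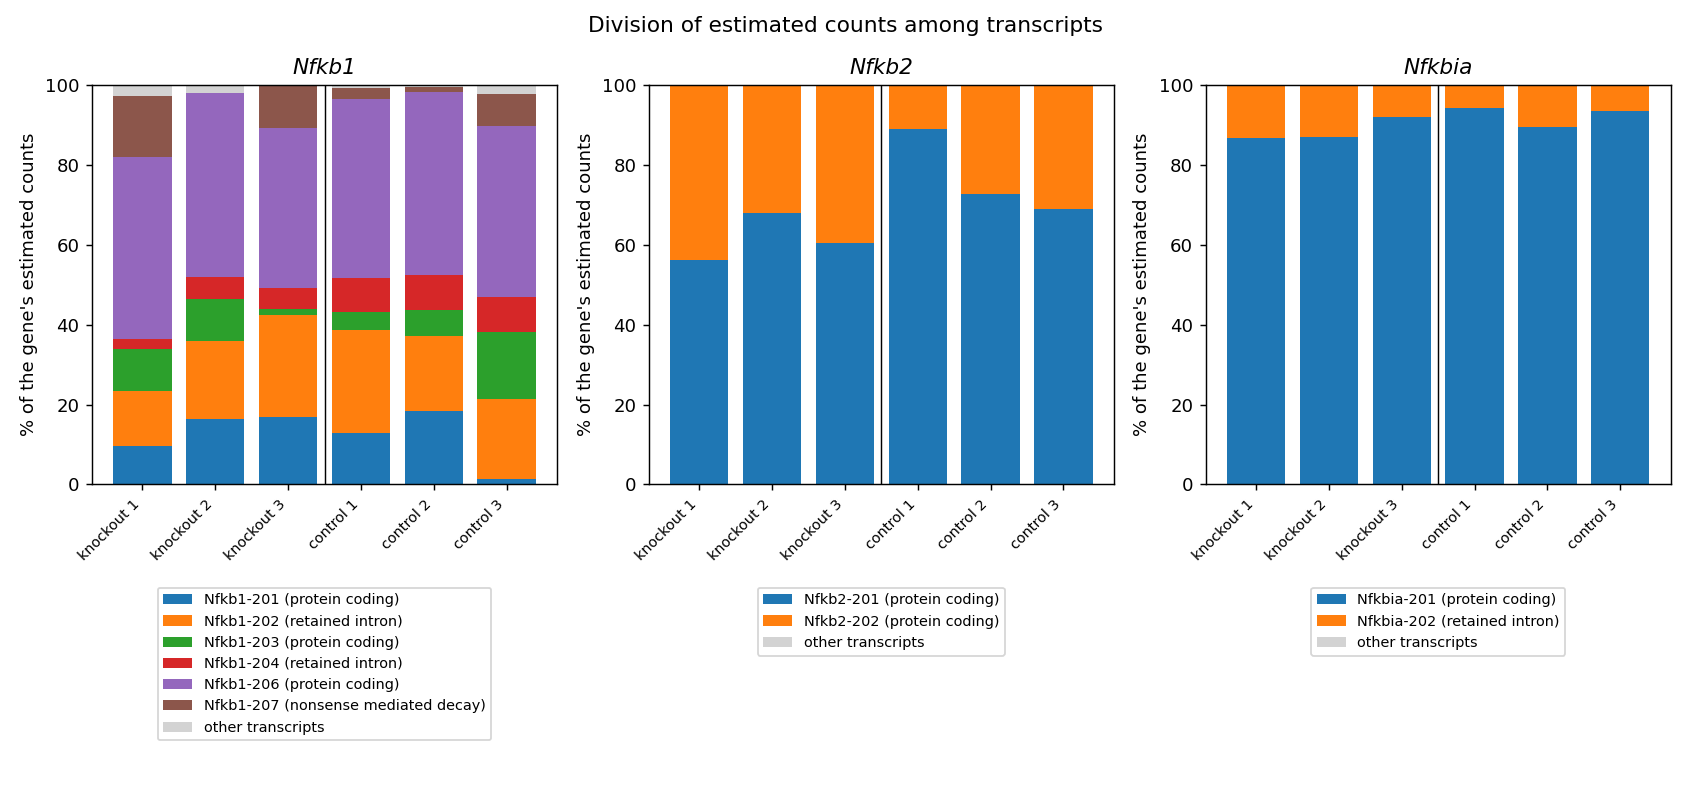
Share (vertical axes, percent of the gene's estimated counts) of each transcript of Nfkb1, Nfkb2 and Nfkbia in each library; knockout 1 to 3 are the libraries labelled knockout, and grey stands for all transcripts averaging under 3% in both groups. Nfkb2-202 ranges from 32.0% to 43.7% in the libraries labelled knockout and from 11.1% to 31.0% in the controls.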

How the data were processed

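The authors deposited estimated counts per transcript, not normalized, and FPKM values for 128603 transcripts in 6 libraries. The submitters' processing notes list HISAT2 2.0.1, Cuffdiff 2.2.1, cutadapt 1.9.1, FastQC 0.10.1, bcl2fastq 2.17.1.14 and the build GRCm38, without role or order; the sources used here name neither the counting program nor the strandedness. Counts were summed per symbol and rounded. The main test was edgeR 4.0.16 (R 4.3.3; quasi-likelihood, TMM, default filter, group as the only term, two-sided, Benjamini-Hochberg over 15017 genes), with SE taken as the fold change over the square root of F. Code was tested on simulated data. Alternatives were DESeq2 1.42.0, limma 3.58.1 on log2(FPKM + 1) and log2(FPKM + 0.1), median-of-ratios scaling, no filter, the replicate number as a block, and each library left out. All 10 genes are named, with at most 2 abundant genes per pathway list. The genes and lists were chosen with earlier results of these data known. P-values measure the spread between libraries, which may be technical. Per-gene levels rest on 69 to 922 counts a library.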

Additional observations from a re-analysis of the deposited data

How the results depend on the processing

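In all 12 alternative fits 0 of the 10 genes and 0 of the 90 further pathway genes were called, and the lowest adjusted p of any of the 10 was 0.889. The limma fits held no value for Tnfsf13b, so not all of the 90 were tested in every fit. Of 120 values of the 10 genes under these alternatives, 114 kept their sign. Leaving out 1 library at a time gave log2 fold changes of -0.12 to 0.06 for Nfkb2, -0.01 to 0.12 for Rela, -0.35 to 0.02 for Nfkbia and -0.70 to 0.05 for Nfkbiz, and the cause was not tested. Among the other pathway genes named, the ranges were -0.14 to 0.10 for Nfkbib, -0.39 to 0.03 for Nfkbie, 0.00 to 0.19 for Tab2, -0.08 to 0.17 for Ltbr, -0.03 to 0.12 for Tnfrsf1a, -0.04 to 0.25 for Hmgb1, -0.04 to 0.20 for Tnfsf12, -0.07 to 0.03 for Cyld and -0.20 to 0.11 for Plau. Hmgb1 was at -0.12 and -0.13 with limma on log2(FPKM + 1) and log2(FPKM + 0.1). Over all genes, 2 were called in the main test, 15 by DESeq2, 5 without a filter, 1 in each limma fit and 1 to 6 with 1 library left out. With the replicate block 2 genes and 0 of the 10 were called; same-numbered libraries shared deviations with correlations of 0.09, -0.091 and 0.116, so the numbers were not taken as pairs, and not every library correlated best with its own number. With 3 libraries a group, intervals of Nfkbiz and Bcl3 include a fold change of 2.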
